A study of Rattus norvegicus with 16 samples.

Results

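A set of 9 genes of granule-bearing leukocytes was followed across the epididymal fat pads (EWAT) of young rats. They were 3 genes carried by neutrophils (S100a8, S100a9 and Camp) and 6 carried by mast cells (Kit, Ms4a2, Cpa3, Cma1, Tpsab1 and Hdc). The genes were chosen by name: every probe whose RefSeq accession maps to one of the 9 symbols was taken, out of 15162 genes named on the array. Each gene had 1 probe, printed as 2 spots on each array.

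The fat came from male offspring, fed ad libitum and killed at an age of 30 days. All dams ate a high-fat diet through pregnancy and lactation, and the pups had the same diet until they were killed. In the group HFT (n = 8) the dams had also been given 25 mg/kg of GSPE, a grape seed procyanidin extract, in low-fat condensed milk. In the group HF (n = 8) the dams received the milk vehicle alone. Litters are not given in the labels, and the p-values therefore reflect the spread between animals, some of which may share a litter. Animals are named here by group and label number.

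Neutrophils are short-lived cells of the blood and of inflamed tissue. S100a8 and S100a9 encode the calcium-binding partners of calprotectin, which fills the neutrophil cytosol and is also made by monocytes and some epithelia, and Camp encodes the cathelicidin of neutrophil granules. Mast cells live in connective tissue, often beside vessels, and depend on the receptor Kit. They bind IgE through a receptor whose beta chain is Ms4a2, and they store histamine, made by Hdc, with heparin and the proteases carboxypeptidase A3 (Cpa3), chymase (Cma1) and tryptase (Tpsab1).

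Levels are log2 of the background-subtracted spot signal minus the 75th percentile of the same array, so that 0 is the level of that percentile. All 9 genes were well above background, as marked by the scanner software, on all 16 arrays. Whole fat pad RNA was measured, so fewer cells of a type and less of its RNA per cell cannot be told apart. The arrays lay on 4 slides with HFT in positions 3 and 4 and HF in positions 1 and 2 of every slide. Position and group therefore cannot be told apart, whereas slide can be compared within. No spot of any array was saturated, and the 75th percentile ran from 753 to 1366 intensity units. High levels of urothelium genes were carried by 3 arrays (HFT 22, HFT 24 and HF 35) and 3 others carried high Lcn5 and Lcn10, which encode lipocalins of the epididymis (HFT 23, HFT 28 and HF 8). High means over 3 log2 units above the median array, for the median of the urothelium list or for both lipocalin genes. HF 9 lay just under that limit for the urothelium list, at 2.90, and is counted below as high for neither tissue. The next array, HFT 23, lay at 0.22. Results that rest on these 6 arrays are given with and without them.

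The cell type labels were checked against other markers. Beside the 6 mast cell genes the marker list held Tpsb2, a tryptase well above background on all 16 arrays, and Fcer1a, a chain of the IgE receptor, above it on 15. Beside the 3 neutrophil genes it held 5 markers, of which the chemokine receptor Cxcr2 alone was above background on all arrays. Csf3r was above it on 5 HFT and 4 HF arrays. Ngp and Mmp8, which encode proteins of neutrophil granules, were above background on no array. Ltf, which encodes the granule protein lactoferrin, was above background on 3 arrays, and those were HFT 23, HFT 28 and HF 8, the 3 with high Lcn5 and Lcn10. The 3 neutrophil genes are therefore described gene by gene rather than as a measure of neutrophils.

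No member passed the test between HFT and HF. The limma test over 21808 probes called 0 probes at an adjusted p under 0.05, which is 0% of those tested, and the smallest adjusted p of any probe was 0.999994. Without adjustment 515 probes, or 2.36%, lay under 0.05 (1.23% lower and 1.13% higher in HFT), and none of the 9 members was among them. All 9 differences were below 0, that is lower in HFT, as were those of 56.2% of all probes tested. The values of the groups overlapped for every member.

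**Figure D1:**
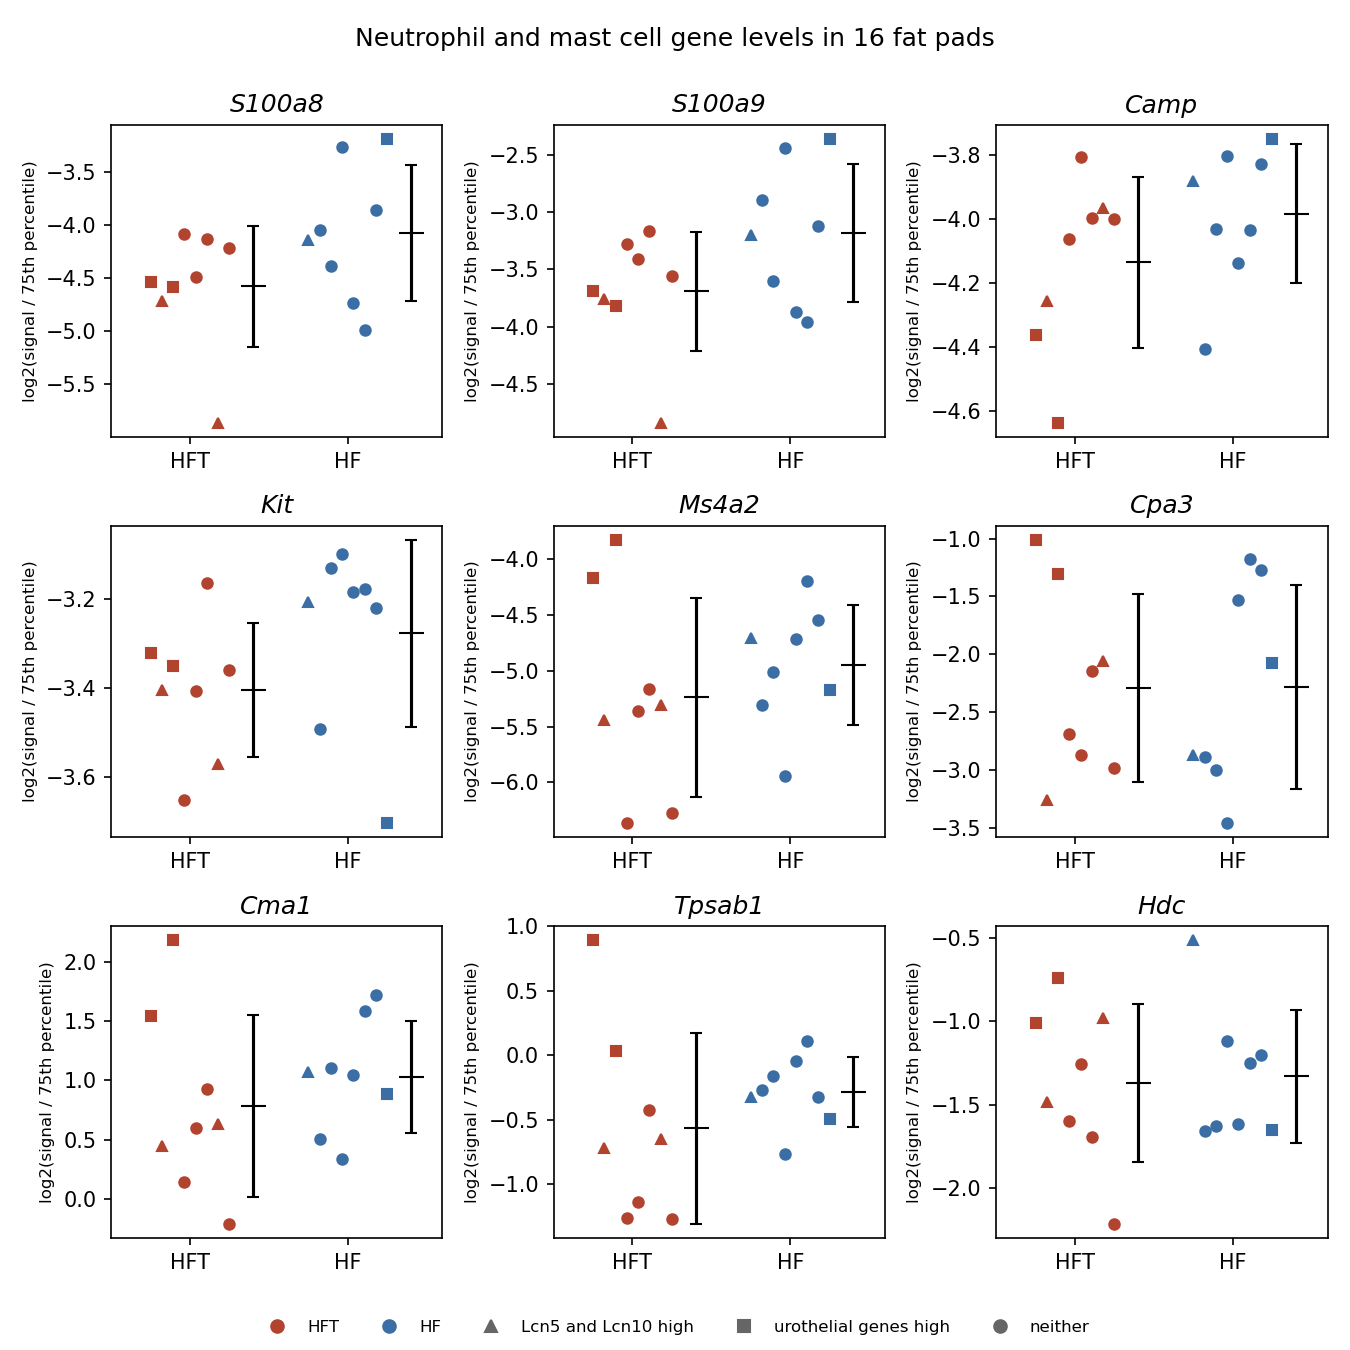
Level of each gene in each fat pad, as log2 of the spot signal over the 75th percentile of the array (vertical axis), with HFT left and HF right in each panel. Points are animals, with shapes marking the arrays high for urothelial genes or for Lcn5 and Lcn10, and bars are the mean and SD of the 8 animals. The groups overlap in every panel, and HFT 28 lies below the rest for S100a8 and S100a9.

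Among the calprotectin genes, the level of S100a8 in HFT was -5.86 at the lowest, -4.51 at the median and -4.08 at the highest, against -4.99, -4.10 and -3.19 in HF. The 8 HFT animals all lay below the HF mean, yet the ranges overlapped. The means were -4.58 ± 0.57 in HFT and -4.08 ± 0.64 in HF (SD, n = 8 each). The difference, HFT minus HF, was -0.50 (SE 0.28, 95% interval -1.10 to 0.10, unadjusted p = 0.0976 by limma). It had the same sign on all 4 slides, at -0.53, -0.51, -0.31 and -0.65. With slide as a block the unadjusted limma p was 0.0277, in a fit where 3.37% of all probes lay under 0.05, and the adjusted p was 0.9996.

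S100a9 followed the same course, with a lowest, median and highest level of -4.84, -3.62 and -3.17 in HFT, against -3.96, -3.16 and -2.37 in HF. Of the HFT animals, 7 of 8 lay below the HF mean. The means of -3.69 ± 0.52 in HFT and -3.18 ± 0.60 in HF (SD, n = 8 each) differed by -0.51 (SE 0.27, 95% interval -1.07 to 0.055, unadjusted p = 0.0740 by limma). Within slides the difference was -0.67, -0.53, -0.21 and -0.62, and with slide as a block the unadjusted limma p was 0.0368. With normexp background correction it was 0.0262 for S100a9 and 0.0478 for S100a8, where 4.38% of all probes lay under 0.05, and the adjusted p was 0.857 for both. HFT 28 was the lowest animal for both genes and HF 35 the highest for both, with a span over the 16 animals of 6.36-fold for S100a8 and 5.54-fold for S100a9.

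Both differences became smaller when animals with signal of other tissues were left out. Without the 3 arrays high for Lcn5 and Lcn10 they were -0.27 for S100a8 and -0.31 for S100a9, in a fit that called 1 probe of another gene (0.00459% of those tested). Without those and the 3 arrays high for urothelium genes, which left 4 HFT and 6 HF animals, they were -0.016 and -0.039. The lowest animal, HFT 28, and the highest, HF 35, were among the 6 arrays left out, and leaving out HFT 28 alone gave -0.32 for S100a8 and -0.34 for S100a9. Whether the other tissue has a part in the level of the calprotectin genes was not tested.

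Camp was flatter. Its level in HFT was -4.64 at the lowest, -4.03 at the median and -3.81 at the highest, against -4.41, -3.96 and -3.75 in HF. These ranges nearly coincided. The means were -4.14 ± 0.27 in HFT and -3.98 ± 0.22 in HF (SD, n = 8 each), a difference of -0.15 (SE 0.12, 95% interval -0.41 to 0.10, unadjusted p = 0.223 by limma). The sign was not the same on every slide, at -0.17, -0.43, 0.20 and -0.21.

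Turning to the mast cell receptors, the level of Kit ranged from -3.65 to -3.16 in HFT with a median of -3.38, and from -3.71 to -3.10 in HF with a median of -3.19. HF animals held both the lowest value (HF 35) and the highest (HF 11). The means were -3.40 ± 0.15 in HFT and -3.28 ± 0.21 in HF (SD, n = 8 each), and the difference was -0.13 (SE 0.094, 95% interval -0.33 to 0.073, unadjusted p = 0.196 by limma). Kit also marks melanocytes and interstitial cells; the 3 melanocyte markers measured, Tyrp1, Tyr and Mlana, were above background on no array, and the interstitial cell markers Ano1 and Etv1 were above it on all arrays.

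Ms4a2, the beta chain of the high-affinity IgE receptor, varied much more. Its level in HFT was -6.37 at the lowest, -5.33 at the median and -3.83 at the highest, against -5.94, -4.86 and -4.19 in HF. HFT animals held both ends of the range, HFT 25 the lowest and HFT 24 the highest. The means were -5.24 ± 0.89 in HFT and -4.95 ± 0.53 in HF (SD, n = 8 each), a difference of -0.29 (SE 0.34, 95% interval -1.02 to 0.44, unadjusted p = 0.413 by limma).

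Of the granule proteases, Cma1 is a chymase, Cpa3 a carboxypeptidase, which trims the ends of peptides, and Tpsab1 a tryptase. GATA factors are known regulators of mast cell genes. The promoters of these 3 proteases and that of Hdc are therefore printed here, as RefSeq gives them for GRCr8. Each runs 5′ to 3′ on the gene's own strand from 250 bases before the start to 50 after it. Capitals mark the letters GATAA, searched on both strands, so that TTATC is the same motif on the other strand. The regions are chr15:33390084-33390383 for Cma1, chr2:104673188-104673487 for Cpa3, chr10:14867253-14867552 for Tpsab1 and chr3:134318655-134318954 for Hdc, all on the minus strand.
Cma1: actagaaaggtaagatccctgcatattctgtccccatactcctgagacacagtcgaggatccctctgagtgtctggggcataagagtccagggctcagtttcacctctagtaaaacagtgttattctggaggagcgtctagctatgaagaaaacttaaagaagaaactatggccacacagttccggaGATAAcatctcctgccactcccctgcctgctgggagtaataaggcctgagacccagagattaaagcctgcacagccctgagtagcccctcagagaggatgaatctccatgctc
Cpa3: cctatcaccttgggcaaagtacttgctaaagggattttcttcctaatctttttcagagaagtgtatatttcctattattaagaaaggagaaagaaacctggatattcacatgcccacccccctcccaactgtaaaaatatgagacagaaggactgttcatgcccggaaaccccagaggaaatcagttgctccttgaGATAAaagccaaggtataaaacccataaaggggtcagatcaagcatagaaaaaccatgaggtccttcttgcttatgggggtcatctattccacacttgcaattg
Tpsab1: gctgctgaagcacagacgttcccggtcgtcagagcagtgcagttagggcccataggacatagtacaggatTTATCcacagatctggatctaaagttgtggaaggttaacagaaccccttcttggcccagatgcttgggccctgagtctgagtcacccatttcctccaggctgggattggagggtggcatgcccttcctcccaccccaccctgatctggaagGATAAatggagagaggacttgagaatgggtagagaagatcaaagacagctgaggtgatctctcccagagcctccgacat
Hdc: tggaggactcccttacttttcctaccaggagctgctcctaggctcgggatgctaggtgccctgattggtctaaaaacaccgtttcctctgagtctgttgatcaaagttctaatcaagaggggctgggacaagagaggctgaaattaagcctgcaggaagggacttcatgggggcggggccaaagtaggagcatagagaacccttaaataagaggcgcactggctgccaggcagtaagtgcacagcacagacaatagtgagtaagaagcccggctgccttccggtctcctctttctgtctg
Cma1 holds the motif 63 bases before the start, Cpa3 54 bases before it, and Tpsab1 180 and 29 bases before it. The Hdc window does not hold these letters. Of 33469 promoters of the same length, 26.5% hold GATAA on either strand. Of the 9 genes 7 were matched to a promoter, and 4 of the 7 held it (the fourth was S100a9, 71 bases before the start). Among the genes named below as most like the mast cell mean, 5 were matched and 2 held it. Those were Fcer1a and Mcpt1, whereas Slc18a2, Milr1 and Tph1 did not hold it. Whether the motif has a part in how these genes moved together was not tested.

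Cma1 had a level of -0.21 at the lowest, 0.62 at the median and 2.18 at the highest in HFT, against 0.34, 1.06 and 1.72 in HF. HFT 36 was lowest and HFT 24 highest of the 16. The means were 0.79 ± 0.77 in HFT and 1.03 ± 0.47 in HF (SD, n = 8 each), with a difference of -0.24 (SE 0.30, 95% interval -0.88 to 0.39, unadjusted p = 0.426 by limma).

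Cpa3 had a level of -3.26 at the lowest, -2.42 at the median and -1.01 at the highest in HFT, against -3.46, -2.47 and -1.17 in HF. The 2 groups spanned almost the same range. The means were -2.29 ± 0.81 in HFT and -2.28 ± 0.88 in HF (SD, n = 8 each), a difference of -0.0079 (SE 0.40, 95% interval -0.85 to 0.84, unadjusted p = 0.984 by limma).

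Tpsab1 had a level of -1.27 at the lowest, -0.68 at the median and 0.89 at the highest in HFT, against -0.77, -0.29 and 0.11 in HF. The HF range lay wholly within that of HFT, with HFT 36 lowest and HFT 22 highest. The means were -0.56 ± 0.74 in HFT and -0.28 ± 0.27 in HF (SD, n = 8 each), a difference of -0.28 (SE 0.26, 95% interval -0.84 to 0.27, unadjusted p = 0.298 by limma). Tpsab1 lies next to its paralog Tpsb2 in the genome, and how far their probes share signal was not tested.

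Hdc, the enzyme that makes histamine from histidine, had a level of -2.21 at the lowest, -1.37 at the median and -0.74 at the highest in HFT, against -1.66, -1.43 and -0.51 in HF. HF 8 stood above the rest of its group. The means were -1.37 ± 0.47 in HFT and -1.33 ± 0.40 in HF (SD, n = 8 each), a difference of -0.043 (SE 0.21, 95% interval -0.48 to 0.40, unadjusted p = 0.840 by limma).

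The sign of the difference was not the same on every slide for any of the 6 mast cell genes, and the change of sign itself was not tested. On slides 1 and 2 the HFT minus HF difference of Ms4a2 was 0.20 and 0.38, and on slides 3 and 4 it was -0.88 and -0.86. Cma1 gave 0.21 and 0.44 on slides 1 and 2, and -0.69 and -0.94 on slides 3 and 4. Cpa3 gave 0.74 and 1.23 on slides 1 and 2, and -1.11 and -0.89 on slides 3 and 4. Tpsab1 gave 0.38, -0.15, -0.92 and -0.44 on slides 1 to 4. Kit gave -0.014, -0.39, -0.31 and 0.20, and Hdc gave -0.16, 0.20, 0.32 and -0.53. HFT 22 lay on slide 1 and HFT 24 on slide 2, and these were the 2 animals with the highest mean over the 6 mast cell genes.

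Those same 2 arrays were high for urothelium genes. The mean level of the 11 urothelium markers measured ran from -5.35 to 1.44 in HFT and from -5.14 to 1.49 in HF; 6 of the 11 were above background on all arrays and each was above it on at least 1. Over the 16 animals that mean had an r of 0.51 with the mast cell mean, given here as a description. HF 35, also high for urothelium genes, had a mast cell mean of -2.04, within the range of the other HF animals.

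Without the 3 arrays high for urothelium genes (6 HFT and 7 HF animals left), the 6 mast cell genes were all lower in HFT. Tpsab1 differed by -0.66 (unadjusted p = 0.00191), Ms4a2 by -0.73 (unadjusted p = 0.0231), Cma1 by -0.62 (unadjusted p = 0.0222) and Kit by -0.21 (unadjusted p = 0.0363), all by limma. None passed the adjusted test, where every member had an adjusted p of 0.999, and 3.33% of all probes reached an unadjusted p under 0.05 in that fit. The mean over the 6 genes differed by -0.47 without these arrays, against -0.17 over all 16 animals. When the arrays high for Lcn5 and Lcn10 were left out as well, the difference was -0.84 for Ms4a2, -0.78 for Tpsab1 and -0.68 for Cma1. It was -0.45 for Cpa3, -0.28 for Hdc and -0.18 for Kit, and none passed the adjusted test. The part of the urothelium signal in these shifts was not tested.

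**Figure D2:**
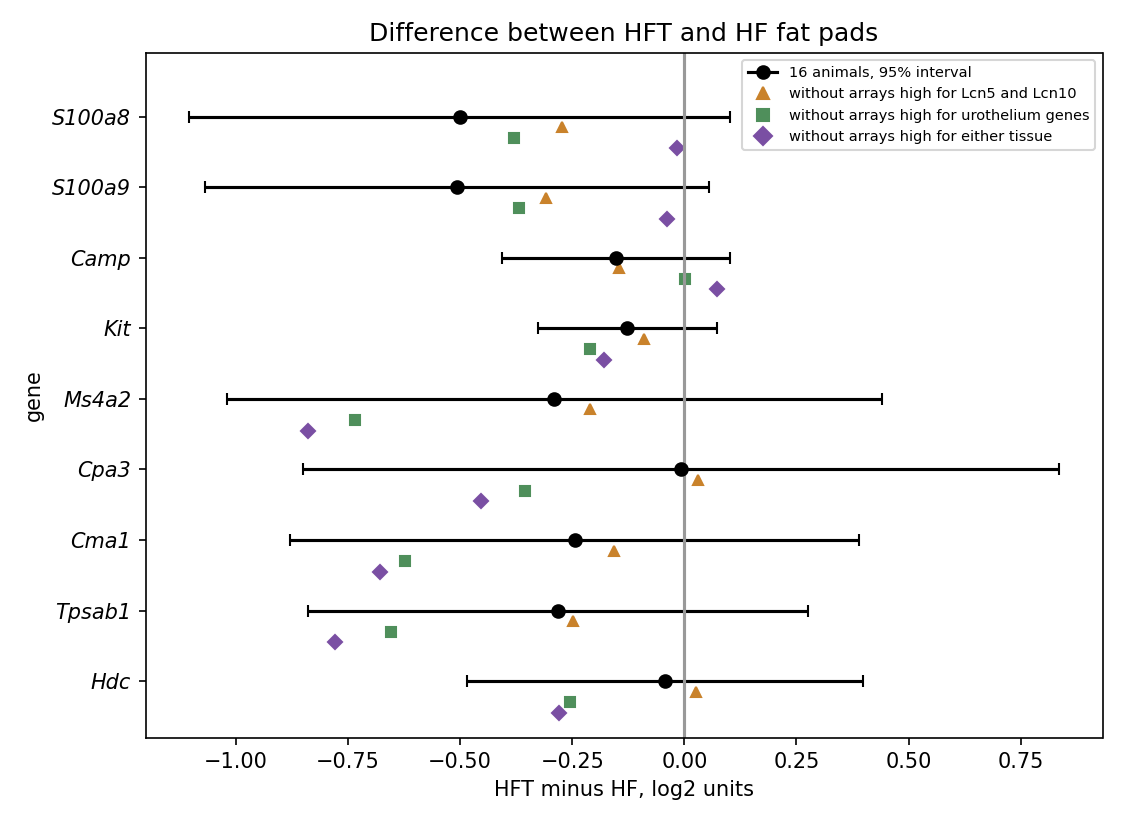
HFT minus HF difference of each gene in log2 units (horizontal axis), with genes down the page. Circles with bars are the estimate over all 16 animals and its 95% interval, and other symbols are the estimates without arrays high for Lcn5 and Lcn10, without those high for urothelial genes, and without either set of arrays. Every interval over 16 animals includes 0. The calprotectin differences shrink and the Ms4a2, Cma1 and Tpsab1 differences grow when both sets of arrays are left out.

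Most of these genes varied widely between animals. The SD between animals of a group was 0.85 for Cpa3, larger than that of 93.2% of all probes tested, 0.73 for Ms4a2 (91.4%), 0.64 for Cma1 (89.5%), 0.60 for S100a8 (88.7%) and 0.56 for S100a9 and Tpsab1. Hdc had an SD of 0.44. Camp (0.24) and Kit (0.18) varied less than the median probe, whose SD was 0.26. The median SD between the 2 spots of a probe on an array was between 0.021 and 0.11 for the 9 genes, which is a measure of the spots alone. For Kit the largest such SD on any array was 0.20, above its SD between animals.

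**Figure D3:**
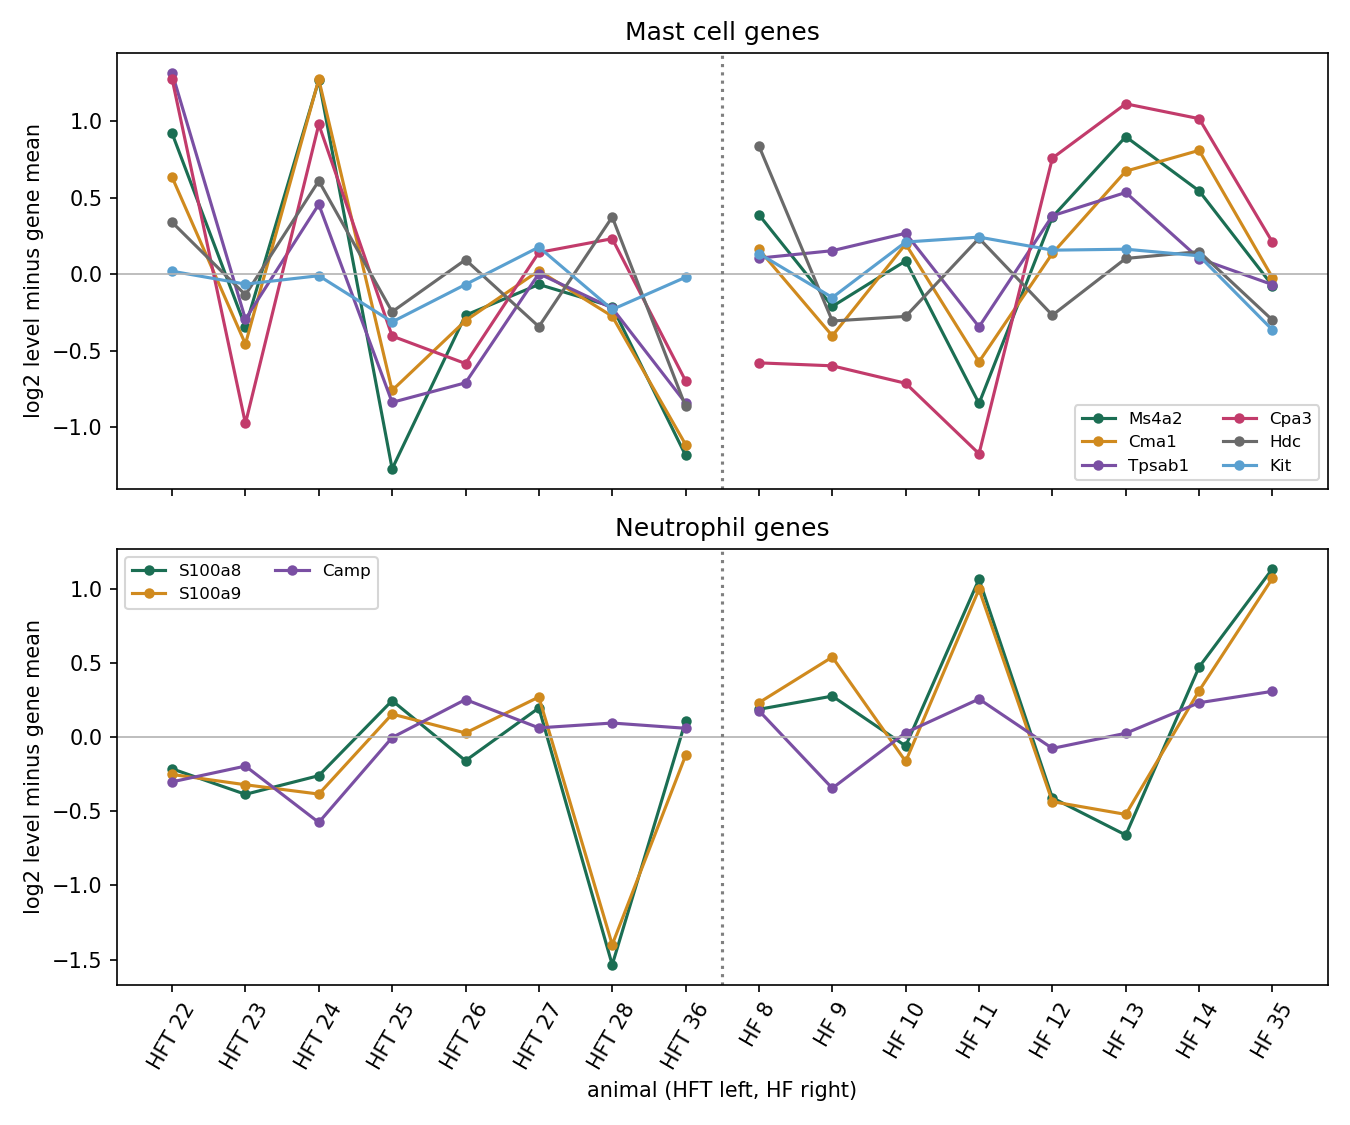
Level of each gene minus its own mean over the 16 animals, in log2 units (vertical axis), for each animal (horizontal axis, HFT left and HF right). Mast cell genes are in the upper panel and neutrophil genes in the lower. S100a8 and S100a9 trace one course, and Ms4a2, Cpa3, Cma1 and Tpsab1 trace another. HFT 22 and HFT 24 are high and HFT 36 low for these 4 mast cell genes, whereas Kit stays near its mean in these animals.

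How the 9 genes moved together was then asked over the 16 animals, with Pearson's r and Spearman's rho for each of the 36 pairs, 2-sided permutation p-values from 100000 resamples and Benjamini-Hochberg adjustment over the 36. The smallest p these permutations can give is 1e-05. S100a8 and S100a9 had an r of 0.98 and a rho of 0.98 (p = 1e-05, adjusted p = 0.00018 for both, permutation test). Without HFT 28 and HF 35, the 2 animals farthest from the median of S100a8, r was 0.95. The 2 genes are neighbours in the genome and are read by a probe each.

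Camp was not part of that pair. Its r was 0.34 with S100a8 (p = 0.197, adjusted p = 0.379, permutation test) and 0.35 with S100a9. Camp was thus not shown to follow the other 2 genes in these fat pads.

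Among the mast cell genes, 4 moved together. Ms4a2 and Cma1 had an r of 0.96 and a rho of 0.97 (p = 1e-05, adjusted p = 0.00018 for both, permutation test). Ms4a2 and Tpsab1 had an r of 0.86 and a rho of 0.91 (adjusted p = 0.00036 and 0.00024, permutation test). The r of Cma1 with Cpa3 was 0.78, as was that with Tpsab1, and the r of Ms4a2 with Cpa3 was 0.77, each past the adjusted threshold by r and by rho.

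The sixth pair of these 4 genes, Cpa3 and Tpsab1, had an r of 0.69 (adjusted p = 0.0123, permutation test), but its rho of 0.62 had an adjusted p of 0.0656. Without the 2 animals farthest from the median its r was 0.53, and without HFT 22 alone it was 0.61 with an adjusted permutation p of 0.0848. Without the 2 farthest animals, the other 5 pairs kept an r of 0.74 to 0.95.

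The joint course of Ms4a2, Cma1, Tpsab1 and Cpa3 was present in each group and within slides. The 6 pairs had an r of 0.82 to 0.97 within HFT and 0.62 to 0.91 within HF (n = 8 each). After the mean of each group on each slide was subtracted, r was 0.83 to 0.99; each such mean rests on 2 animals, so no p is given. On the 10 arrays high for neither other tissue, r was 0.61 to 0.95. All 4 genes lay above their own means in 5 animals (2 HFT and 3 HF) and all 4 below in 5 (4 HFT and 1 HF).

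Individual animals show the size of it. HFT 24, the highest for Cma1 at 2.18, had Ms4a2 at -3.83, whereas HFT 36 had Cma1 at -0.21 and Ms4a2 at -6.28. HFT 22 had the highest Cpa3 at -1.01 and the highest Tpsab1 at 0.89, against -3.46 and -0.77 in HF 11. The span over the 16 animals was 5.82-fold for Ms4a2, 5.47-fold for Cpa3, 5.23-fold for Cma1 and 4.46-fold for Tpsab1.

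**Figure D4:**
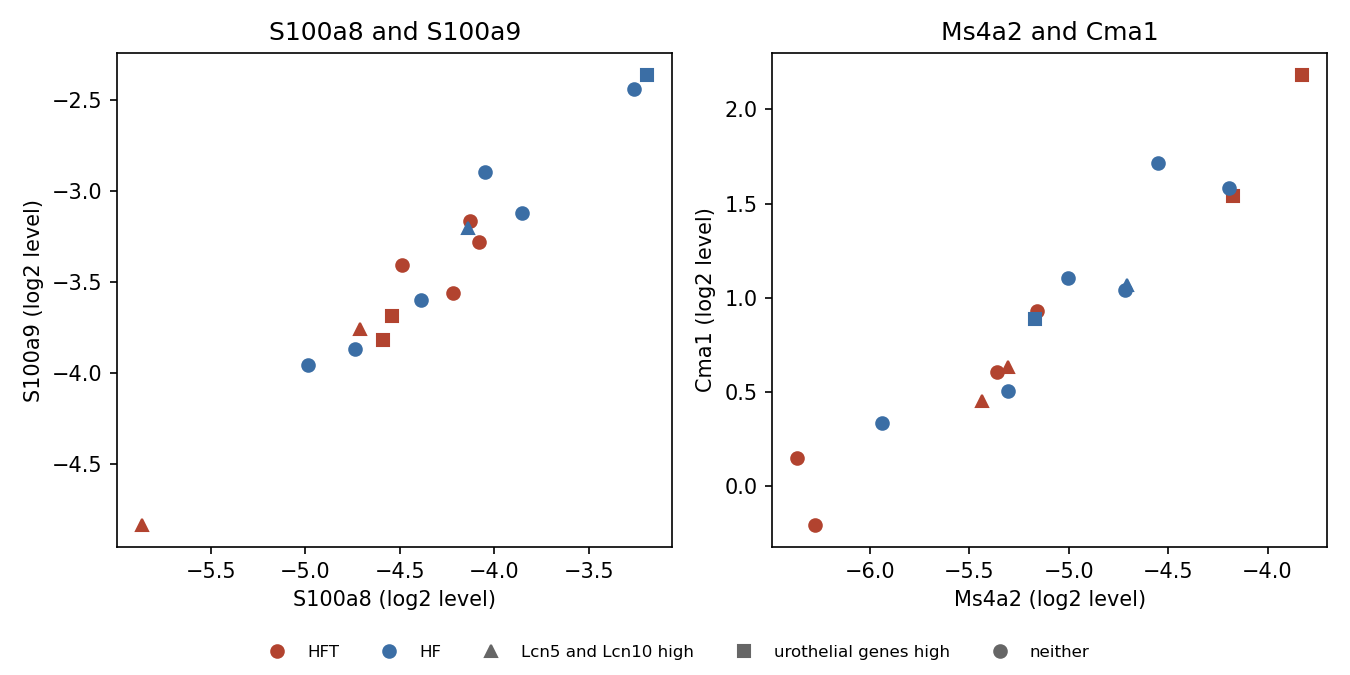
Log2 level of one gene against that of another over the 16 animals, for the pair of highest r among the neutrophil genes (left) and among the mast cell genes (right). Each point is an animal, coloured by group and shaped by the tissue marks of its array. S100a8 with S100a9 (r of 0.98) and Ms4a2 with Cma1 (r of 0.96) lie along lines that HFT and HF animals share.

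Kit and Hdc had lower values of r with these 4, and the difference from the 4 was not tested. Hdc had an r of 0.57 with Ms4a2 and of 0.57 with Cma1 (adjusted p = 0.0802 for each, permutation test), and without the 2 farthest animals these were 0.48 and 0.25. Kit had an r between 0.067 and 0.36 with the other 5 mast cell genes, none past the threshold. After the mean of each group on each slide was subtracted, r was 0.40 to 0.74 for Kit with the other 5 and 0.52 to 0.70 for Hdc with the 4, given with no p. Within HFT (n = 8) the r of Hdc was 0.80 with Ms4a2 and with Cma1, and within HF it was 0.16 with each. All 15 pairs of mast cell genes had an r above 0, with a median of 0.57.

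Between the 3 neutrophil and the 6 mast cell genes, 16 of the 18 pairs had an r below 0. The median was -0.20, the range -0.47 to 0.053, and 0 pairs passed the adjusted threshold by r or rho. The lowest was Camp with Tpsab1, at an r of -0.47 (p adjusted 0.232, permutation test). The mean of S100a8 and S100a9 had an r of -0.39 with the mast cell mean after group means were subtracted, given as a description.

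**Figure D5:**
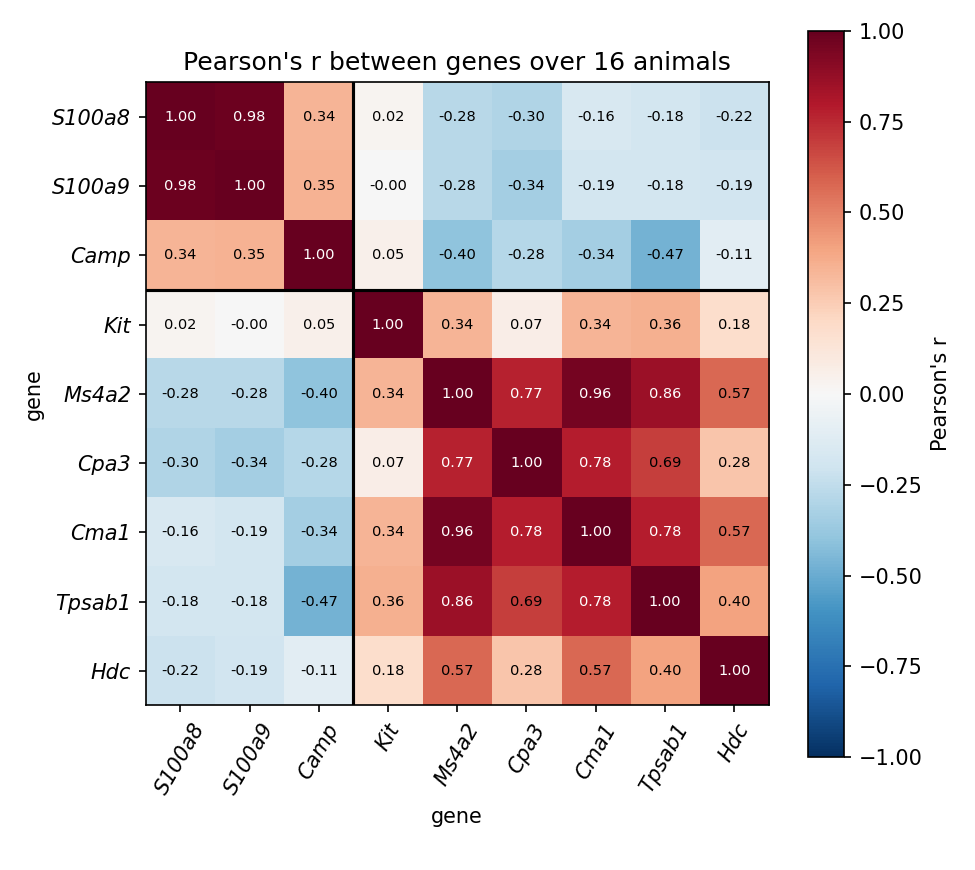
Pearson's r over the 16 animals for each pair of genes (both axes list the genes, neutrophil genes first, with black lines between the sets; colour gives r). High r appears in 2 blocks, S100a8 with S100a9 and Ms4a2, Cpa3, Cma1 and Tpsab1 with each other. The block between the sets is mostly below 0, from -0.47 to 0.053.

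Genes whose level most resembled these courses were sought among 11591 genes, with 1 probe each, as the r of deviations from group means over the 16 animals. For the mean of the 6 mast cell genes the 6 highest were Slc18a2 (0.93), the transporter that loads histamine and other amines into granules, Milr1 (0.90), an inhibitory receptor of mast cells, Tph1 (0.90), which starts serotonin synthesis and is active in rodent mast cells, Fcer1a (0.90), the chain of the IgE receptor that binds IgE, Mcpt1 (0.86), a rat mast cell chymase, and Cd72 (0.85), a receptor known from B cells. Cd72 was well above background on 10 of the 16 arrays, with a lowest level of -8.60 in HFT 36. On the 10 arrays high for neither other tissue the 6 genes stood at 0.83 to 0.95. The r of all genes was not computed on those 10 arrays. There the 7 adipocyte markers measured ran from -0.050 to 0.73, against -0.27 to 0.13 over all 16. Over the 16 animals only 17 genes, or 0.147%, had an r over 0.7, and the median r over all genes was -0.024. The ranking left out the members, whereas this count and median include them. Among the 17 were Ms4a2, Cma1, Tpsab1 and Cpa3, which are themselves part of the mean.

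The same was done for the mean of the 3 neutrophil genes, although Camp did not follow the other 2. The 6 highest were Plec (0.85), a cytoskeletal linker, Mxd1 (0.83), a partner of Max, Retnlg (0.83), a resistin-like peptide of myeloid cells, Rec8 (0.80), a meiotic cohesin, Acads (0.79), a mitochondrial acyl-CoA dehydrogenase, and Bscl2 (0.79), the lipid droplet protein seipin. Retnlg and Mxd1 are known from neutrophils. Without HFT 28 the 6 stood at 0.71 to 0.79. Here 82 genes had an r over 0.7, and the median over all genes was 0.088. This count again includes members, S100a8 and S100a9, which are part of the mean.

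A wider list of 25 neutrophil genes had 22 members on the array, 10 of which passed the filter on dim probes and 8 of which were above background nowhere (among them Ngp, Mmp8, Elane and Cxcr1). Of the 10 tested, 4 were higher and 6 lower in HFT, with 0 at an unadjusted p under 0.05, and the median difference was -0.025 against -0.016 over all probes. The 4 of smallest p were Retnlg at -0.20 (SE 0.17), Chi3l1, a chitinase-like protein, at 0.15 (SE 0.19), the decoy receptor Il1r2 at -0.12 (SE 0.23) and haptoglobin (Hp) at 0.27 (SE 0.62). Only Retnlg had an r over 0.7 with the calprotectin mean, at 0.78, and the median r of the list was 0.056.

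A list of 34 further mast cell genes had 26 on the array, of which 23 were tested and 3 (Tpsg1, Mcpt3 and Mcpt4) were above background nowhere. Of the 23, 10 were higher and 13 lower in HFT (56.2% of all probes were lower), with a median difference of -0.041. The 1 of 23 with an unadjusted p under 0.05, against 2.36% of all probes, was Ltc4s, which makes leukotriene C4. Ltc4s averaged -2.96 ± 0.63 in HFT and -3.70 ± 0.54 in HF (SD, n = 8 each), a difference of 0.74 (SE 0.28, unadjusted p = 0.0160 by limma). The next were Fcer1g at 0.21 (SE 0.12), the signalling chain of Fc receptors, Il1rl1, the receptor of Il33, at -0.40 (SE 0.28), and Alox5, which starts leukotriene synthesis, at 0.24 (SE 0.18). The second probe of Il1rl1 gave 0.049.

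The list's r with the mast cell mean had a median of 0.41, and 5 of the 23 had an r over 0.7. These were Slc18a2, Tph1, Fcer1a, Mcpt1 and Tpsb2, whose r was 0.84. Ltc4s had an r of 0.36, or 0.78 on the 10 arrays high for neither other tissue, and it is also made in macrophages, whose 8 markers were all above background on all arrays and all higher in HFT (median difference 0.31), with a median r of 0.20 with the mast cell mean. On the 10 arrays the r of the 8 markers with that mean was 0.49 to 0.75. The part of macrophages in the Ltc4s difference was not tested.

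The ligands that call or feed these cells were read as another list, of 15, of which 13 were on the array and 8 tested, 2 higher and 6 lower in HFT with a median of -0.025. Kitlg, the ligand of Kit, averaged 1.56 ± 0.10 in HFT and 1.68 ± 0.16 in HF (SD, n = 8 each), a difference of -0.11 (SE 0.075, unadjusted p = 0.152 by limma). Its other probes gave -0.064 and 0.022. Il33, which activates mast cells through Il1rl1, averaged 1.01 ± 0.35 in HFT and 0.92 ± 0.32 in HF, a difference of 0.088 (SE 0.16). Il3, Il4, Il9 and Cxcl6 were above background on no array.

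Of the attractants that act on neutrophils through Cxcr2, 2 had an unadjusted p under 0.05, both lower in HFT, out of 8 list members tested and against 1.23% of all probes in that direction. Cxcl1 averaged -3.75 ± 0.77 in HFT and -1.69 ± 1.57 in HF (SD, n = 8 each), a difference of -2.05 (SE 0.58, unadjusted p = 0.00272 by limma). Cxcl2 averaged -5.24 ± 0.92 in HFT and -3.65 ± 1.75 in HF, a difference of -1.59 (SE 0.65, unadjusted p = 0.0267 by limma). Neither passed the adjustment over all probes. Their r with the calprotectin mean, after group means were subtracted, was 0.28 for Cxcl1 and 0.24 for Cxcl2.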

How the data were processed

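RNA of 16 fat pads, 8 HFT and 8 HF, was read on 1-colour arrays with 62976 spots each. The spot intensities were deposited as output of Agilent Feature Extraction 10.7.3.1, after background subtraction and with no scaling between arrays, per the file headers. The authors also deposited log2 values per spot, with column medians of 7.33 to 7.36, whose normalization was not given in the sources used here and which served as an alternative. The 0 or 1 scores for spots well above background, saturated or unlike their replicates were deposited by the authors in the same files.

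From the deposited intensities, log2 values minus each array's 75th percentile were averaged over the spots of a probe. Of 30344 probes, 17997 were named by RefSeq accession, and the 21808 marked well above background on 4 or more arrays of either group were tested. HFT was compared with HF by limma 3.58.1 in R 4.3.3 with Benjamini-Hochberg adjustment, after import through the R package data.table (version 1.17.8). The fit and the permutation test were tested on simulated data. For the fit the noise was independent between probes, with no shared litters or signal of other tissues. The number of arrays limits the precision.

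The genes and lists were chosen with earlier results of these data known. Named were all 9 members, the 4 tested genes of smallest p in each further list, and the 6 genes most like each member mean; any other was chosen after its values were seen, as were the rule on Lcn5 and Lcn10, the mean of S100a8 and S100a9, and the subset of Ms4a2, Cma1, Tpsab1 and Cpa3. Promoters came from RefSeq (GRCr8).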

Additional observations from a re-analysis of the deposited data

Results flagged for a closer look

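Each member was examined in each group for an animal far from the rest, which made 18 sets of 8 values. An animal was marked where its gap to the nearest other value, divided by the whole range of the group exceeded Dixon's critical value. Chance marks about 1 in 20 such sets, and 3 of the 18 were marked here. In HFT 28 the level of S100a8 was -5.86, against -4.71 in the nearest HFT animal. In the same animal S100a9 was -4.84, against -3.82 in the nearest. S100a8 and S100a9 had an r of 0.98, so their marks are not independent. In HF 8 Hdc was -0.51, against -1.12 in the nearest HF animal. Both animals were among the 3 with high Lcn5 and Lcn10. The cause was not tested.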

How the results depend on the processing

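No paired analysis was possible because HFT and HF animals share no replicate number in the labels. The count of called probes was 0 under every alternative except without the 3 arrays high for Lcn5 and Lcn10, where it was 1, Acot5, at -4.38 (SE 0.49, adjusted p = 0.0131 by limma, 6 HFT and 7 HF animals); without each animal in turn it was 0 throughout. S100a8, S100a9, Kit, Ms4a2, Cma1 and Tpsab1 kept the sign of their difference under all 26 alternatives, though not its size: Ms4a2 was -0.15 with normexp and -0.12 in the authors' deposited table, S100a8 -0.31 with normexp and S100a9 -0.32 with array weights. Others changed it: Cpa3 was 0.0094 after quantile normalization, 0.014 in the authors' deposited log2 table and 0.031 without arrays high for Lcn5 and Lcn10; Camp was 0.0023 without arrays high for urothelium genes and 0.073 without either set; Hdc was 0.027 without arrays high for Lcn5 and Lcn10. Leaving out each animal in turn gave -0.19 to 0.15 for Cpa3, -0.13 to 0.078 for Hdc, -0.21 to -0.080 for Camp, -0.63 to -0.32 for S100a8, -0.49 to -0.13 for Ms4a2, -0.44 to -0.10 for Cma1 and -0.49 to -0.18 for Tpsab1. The lowest value came without HFT 24 for Ms4a2 and Cma1 and without HFT 22 for Tpsab1. Without each animal in turn, the mean of the neutrophil genes ranged from -0.47 to -0.28, and it was 0.0058 without either set of arrays. The mean of the mast cell genes ranged from -0.29 to -0.065 without each animal in turn. It lay outside that range without arrays high for urothelium genes (-0.47) and without either set (-0.53). Leaving out each animal gave 6 to 9 called pairs of the 36, against 5 without arrays high for urothelium genes and 5 without either set. The r of Ms4a2 with Cpa3 was 0.68 without arrays high for urothelium genes (adjusted permutation p = 0.0708) and 0.78 without either set (adjusted permutation p = 0.0564), and that of Cpa3 with Tpsab1 was 0.55 (0.234) and 0.61 (0.287). The cause of these shifts was not tested. The planned rule for epididymal genes, by the median of a list, marked 0 arrays and gave no value. With 1 probe per member, averaging the probes of a gene changes nothing.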

Other observations

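Mcpt8, Mcpt8l2, Mcpt9 and Mcpt10, chosen after their values were seen, had an r of 0.95 to 0.99 with each other over the 16 animals after group means were subtracted. Mcpt8, known as a basophil protease in the mouse, had a level of 0.45 in HFT 28, 0.54 in HF 8 and 0.51 in HF 13, and lay between -2.38 and -0.69 in the others. HFT 28 and HF 8 are among the arrays high for Lcn5 and Lcn10. Its r with the mean of the 6 mast cell genes was 0.38, and 0.64 on the 10 arrays high for neither other tissue, and whether its course differs from theirs was not tested. Mcpt9 was highest in the same 3 animals, at -0.32 in HFT 28, -0.46 in HF 8 and -0.73 in HF 13. Il4, another basophil marker, was above background on no array, and how far probes for these near-identical genes share signal was not tested.

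Lcn2, a lipocalin of neutrophil granules and of several epithelia that was chosen after its values were seen, averaged 0.82 in HFT and 0.57 in HF. It was high on the 3 arrays high for Lcn5 and Lcn10, at 3.66 in HFT 28 and 3.07 in HF 8 and next highest in HFT 23, and at most 0.77 on the others. Of 6 eosinophil markers, Prg2 and Siglec5 were above background on all 16 arrays, Prg3 on 1, and Epx, Ccr3 and Il5ra on none.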
